A study of Mus musculus with 6 samples.

Results

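Sulfiredoxin, the peroxiredoxins and thioredoxin reductase 1 were followed in the mouse hypothalamic paraventricular nucleus (PVN) after an electroconvulsive seizure (ECS) evoked by 1 shock. All probe sets whose only gene symbol was Srxn1, Prdx1 to Prdx6 or Txnrd1 were taken, which gave 13 of the 22626 probe sets of the array. They cover 5 of its 12393 named genes, with 4 probe sets for Srxn1, 2 for Prdx2, 1 for Prdx3, 3 for Prdx4 and 3 for Txnrd1. The 5 probe sets that name Prdx1 also name Gm21399 and are therefore not analysed here. Prdx5 and Prdx6 have no probe set in the annotation used and are not analysed here. The genes were picked with the Srxn1 values at 2 h after shock already known, so the Srxn1 values below are a description without a test.

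The tissue came from C57Bl/6 mice in 3 groups of 2 arrays each. The first group received the shock through ear clip electrodes (a current of 25 mA lasting 1 s, at 100 pulses per s of 0.5 ms each) and gave tissue at 2 h (ECS 2 h). The second received the same shock and gave tissue at 6 h (ECS 6 h), and the third was handled alike without a shock and gave tissue at 2 h (sham). All groups were under isoflurane anaesthesia for the treatment. No sham group was collected at 6 h, so the later collection and the shock cannot be told apart at 6 h. Each array held pooled RNA of 2 to 3 animals, cut by laser from 7 µm sections and amplified from 2 ng of total RNA, and the whole experiment was run 2 times with different animals. Age and sex are not given in the labels. With 2 arrays against 2, an exact two-sided permutation test of a single value cannot go below p = 0.333, and p-values here measure the spread between pools.

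Peroxiredoxins are abundant thiol peroxidases that reduce hydrogen peroxide through a reactive cysteine. When peroxide is high, that cysteine is overoxidised and the enzyme stops working, and sulfiredoxin, the product of Srxn1, uses ATP to bring the overoxidised form back. The ordinary catalytic cycle is closed by thioredoxin, which thioredoxin reductase (Txnrd1 in the cytosol) recharges with NADPH. In cultured neurons Srxn1 is known as a gene of synaptic activity, driven through AP-1 sites, and in many tissues as a target of the oxidative stress factor NRF2.

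The start-proximal sequence of Srxn1 is shown because the AP-1 factors and the NRF2 regulators were followed beside it. The 250 bases before the start of 7 of the 8 genes were found in the RefSeq promoter table (mouse build GRCm38.p6). The search covered 3 short motifs on both strands, namely the AP-1 motif TGACTCA, the antioxidant response element core TGACNNNGC and the cyclic AMP response element TGACGTCA. Capitals mark matches to the AP-1 motif and the antioxidant response element core only. An AP-1 motif can lie inside an antioxidant response element.
Srxn1, chr2:152105274-152105523, plus strand: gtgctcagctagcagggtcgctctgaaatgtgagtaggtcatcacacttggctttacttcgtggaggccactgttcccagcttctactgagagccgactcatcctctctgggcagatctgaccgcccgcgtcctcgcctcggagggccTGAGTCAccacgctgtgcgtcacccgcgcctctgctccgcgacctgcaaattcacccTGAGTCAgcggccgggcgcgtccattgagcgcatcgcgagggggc
Prdx2, chr8:84969372-84969621, plus strand: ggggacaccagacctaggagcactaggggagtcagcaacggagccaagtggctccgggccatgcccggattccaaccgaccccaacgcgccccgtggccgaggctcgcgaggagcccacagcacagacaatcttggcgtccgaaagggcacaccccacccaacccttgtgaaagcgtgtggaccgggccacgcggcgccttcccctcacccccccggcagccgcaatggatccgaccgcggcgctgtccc
Txnrd1, chr10:82858956-82859205, plus strand: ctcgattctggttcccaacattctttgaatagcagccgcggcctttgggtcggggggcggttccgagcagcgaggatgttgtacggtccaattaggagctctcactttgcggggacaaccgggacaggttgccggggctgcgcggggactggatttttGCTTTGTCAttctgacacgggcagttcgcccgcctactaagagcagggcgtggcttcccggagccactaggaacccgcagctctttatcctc
The Srxn1 sequence held 2 AP-1 matches, at 102 to 96 and at 45 to 39 bases before the start. It held 0 matches to the antioxidant response element core as searched and 0 to the cyclic AMP response element. The AP-1 match at 45 to 39 is followed by GC. The resulting TGAGTCAGC differs from the searched core at 1 base, with G in place of C. Wider forms of the core were not searched, so the 0 does not show that Srxn1 lacks such an element. At least 1 AP-1 match was found in 4.46% of the 32851 mouse promoters of the same length, and 2 or more in 0.167%. Prdx2, Prdx3 and Prdx4 held 0 matches to each of the 3 motifs. Of the 3 Txnrd1 promoters in the table, 1 held an antioxidant response element core, at 92 to 84 bases before its start, as did 10.2% of all promoters. The Prdx1 promoter held 2 AP-1 matches, 1 of them inside an antioxidant response element core. The cyclic AMP response element stood in 1.55% of promoters. These are matches of letters only, and binding was not measured.

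Srxn1 stood higher after shock at both times on 3 of its 4 probe sets, by 1.87-fold to 4.58-fold at 2 h and by 2.25-fold to 4.51-fold at 6 h. In these pooled dissections, more cells that hold a transcript and more transcript per cell cannot be told apart. The 4 probe sets are given one by one, first as the deposited array intensity of replicates 1 and 2, then on a log2 scale after an offset of 16 and quantile normalization between the arrays.

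Probe set 1451680_at showed the widest separation. Its intensity was 376.4 and 312 in the ECS 2 h arrays, 503.8 and 308.9 in the ECS 6 h arrays, and 50.4 and 93.7 in the sham arrays. All 4 shocked arrays were thus far above both sham arrays, while the shocked groups overlapped each other. The log2 signal averaged 8.59 ± 0.44 at 2 h, 8.57 ± 0.46 at 6 h and 6.40 ± 0.14 in sham (SD, n = 2 each). The log2 change against sham was 2.20 ± 0.37 (SE) at 2 h, or 4.58-fold, and 2.17 ± 0.37 at 6 h, or 4.51-fold. Among the 12662 probe sets fitted it ranked 4 from the highest change at 2 h and 3 at 6 h. The corresponding ranks were 17 and 7 for 1426875_s_at, 293 and 95 for 1419942_at, and 3004 and 1267 for 1425351_at. Replicate numbers were taken as the 2 runs of the experiment here and below, which the labels do not state outright. On that reading the difference was present within each run. In run 1 it was 2.60 at 2 h and 2.60 at 6 h, and in run 2 it was 1.79 and 1.75.

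Probe set 1426875_s_at gave nearly the same picture. Its intensity was 298.9 and 469.3 at 2 h, 540.9 and 423.8 at 6 h, and 126.9 and 91.2 in sham. The shocked arrays again stood clear of the sham arrays, and the sham pair was further apart on the log2 scale than on 1451680_at. The log2 signal averaged 8.72 ± 0.18 at 2 h, 8.84 ± 0.22 at 6 h and 6.96 ± 0.71 in sham (SD, n = 2 each). The log2 change was 1.76 ± 0.38 at 2 h (3.38-fold) and 1.88 ± 0.38 at 6 h (3.67-fold). Here run 2 held the larger difference, with 2.39 at 2 h against 1.13 in run 1.

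Probe set 1419942_at separated the groups the same way, by less. Its intensity was 494.7 and 772.5 at 2 h, 644.6 and 1140.5 at 6 h, and 297.1 and 392.9 in sham. On the normalized scale the shocked arrays did not overlap with sham at either time. The log2 signal averaged 9.41 ± 0.19 at 2 h, 9.68 ± 0.61 at 6 h and 8.51 ± 0.16 in sham (SD, n = 2 each). The log2 change was 0.90 ± 0.32 at 2 h (1.87-fold) and 1.17 ± 0.32 at 6 h (2.25-fold).

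Probe set 1425351_at stood apart from the other 3 at 2 h, where it overlapped with sham. Its intensity was 49.3 and 144.3 at 2 h, 87.1 and 156.5 at 6 h, and 69.6 and 79.3 in sham. The 2 h arrays lay on either side of the sham arrays, with a change of -0.43 in run 1 and 0.97 in run 2. The log2 signal averaged 6.76 ± 0.71 at 2 h, 7.01 ± 0.40 at 6 h and 6.49 ± 0.28 in sham (SD, n = 2 each). The log2 change was 0.27 ± 0.44 at 2 h and 0.52 ± 0.44 at 6 h, and at 6 h the arrays did not overlap with sham. In the array annotation 1425351_at and 1451680_at rest on the same cDNA record, and over the 6 arrays their log2 values correlated with Pearson's r = 0.23. With 1419942_at the r of 1425351_at was 0.74, and with 1426875_s_at it was 0.55. Among the other 3 probe sets, r was 0.90 between 1426875_s_at and 1451680_at and 0.82 between 1419942_at and 1426875_s_at. It was 0.72 between 1419942_at and 1451680_at. All these values come from the same 6 arrays and their shared depth and amplification.

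**Figure D1:**
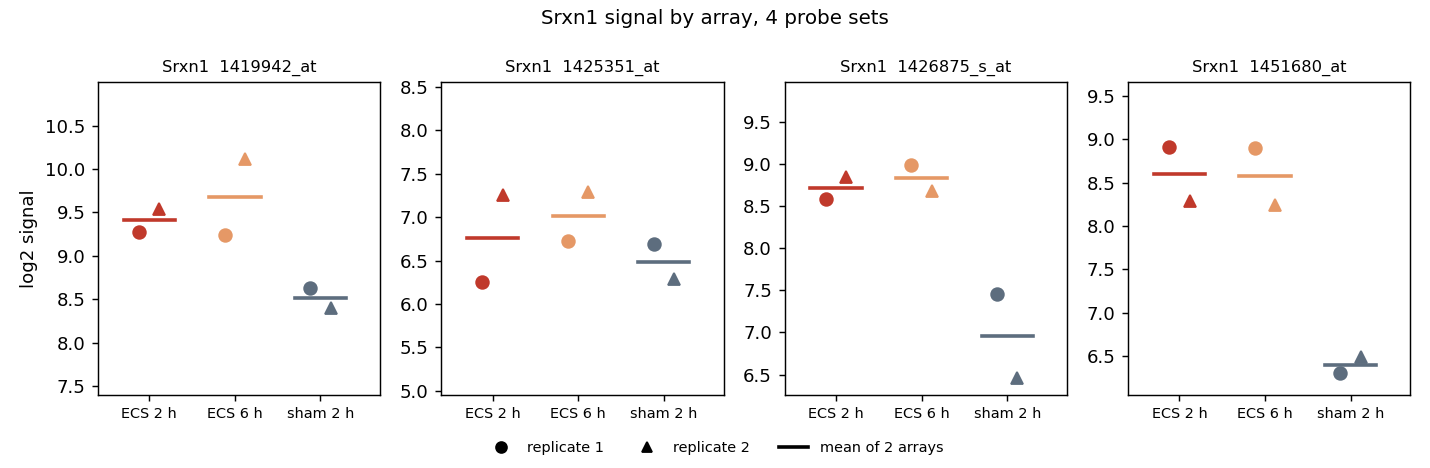
Log2 signal of the 4 Srxn1 probe sets on each array (vertical axis, offset of 16 and quantile normalized), with ECS 2 h, ECS 6 h and sham from left to right; circles are replicate 1, triangles replicate 2, and bars the mean of 2 arrays. On 1419942_at, 1426875_s_at and 1451680_at every shocked array lies above both sham arrays, and on 1425351_at the ECS 2 h arrays overlap with sham.

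The levels of Srxn1 at 2 h and 6 h were close. The log2 difference of ECS 6 h minus ECS 2 h was -0.02 ± 0.37 on 1451680_at, 0.12 ± 0.38 on 1426875_s_at, 0.27 ± 0.32 on 1419942_at and 0.25 ± 0.44 on 1425351_at (SE). In all 4 probe sets the 2 shocked groups overlapped, so their order is not settled by these arrays. The sign for 1451680_at turned with the scaling, with 0.20 when arrays were not scaled and 0.10 after subtraction of the array medians. By mean signal the order was 6 h, 2 h and sham on the other 3 probe sets, and 2 h, 6 h and sham on 1451680_at.

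Across the 12 of the 13 probe sets that passed the filter on dim signals, 4 had both ECS 2 h arrays above both sham arrays and 0 had both below. Over all 12662 fitted probe sets the corresponding shares were 16.3% above and 16.4% below. Of the 4, 3 belong to Srxn1 and 1 to Prdx2. At least 2-fold separation without overlap was seen in 2 of the 12, both of Srxn1, against 1.58% of all probe sets upward. At 6 h, 4 of the 12 stood above sham without overlap, all 4 of them Srxn1, and 3 of these by at least 2-fold. The shares over all probe sets were 14.8% upward and 15.3% downward without overlap, and 1.31% upward by at least 2-fold. At 6 h against 2 h, 0 of 12 were higher without overlap (14.4% of all probe sets), 0 by at least 2-fold (1.32% of all), and 1 was lower (15% of all). The 2 comparisons with sham share the sham arrays, and Srxn1 was picked on the first of them, so nothing is read from its share in these counts.

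The limma test with Benjamini-Hochberg adjustment over all 12662 probe sets called 0 probe sets at 2 h against sham, 0 at 6 h against sham and 0 at 6 h against 2 h, or 0% each. An unadjusted p under 0.05 was held by 507 (4%), 475 (3.75%) and 438 (3.46%). When run was added to the fit as a replicate block, 4 probe sets were called at 2 h against sham, 0 of them among the 12 described here. In data simulated for the comparison of 2 h with sham, with 200 of 12662 probe sets changed, the fit found 55.2% of the 4-fold and 5.37% of the 2-fold changes. The simulated arrays held independent noise and no difference between runs, unlike the real ones.

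**Figure D2:**
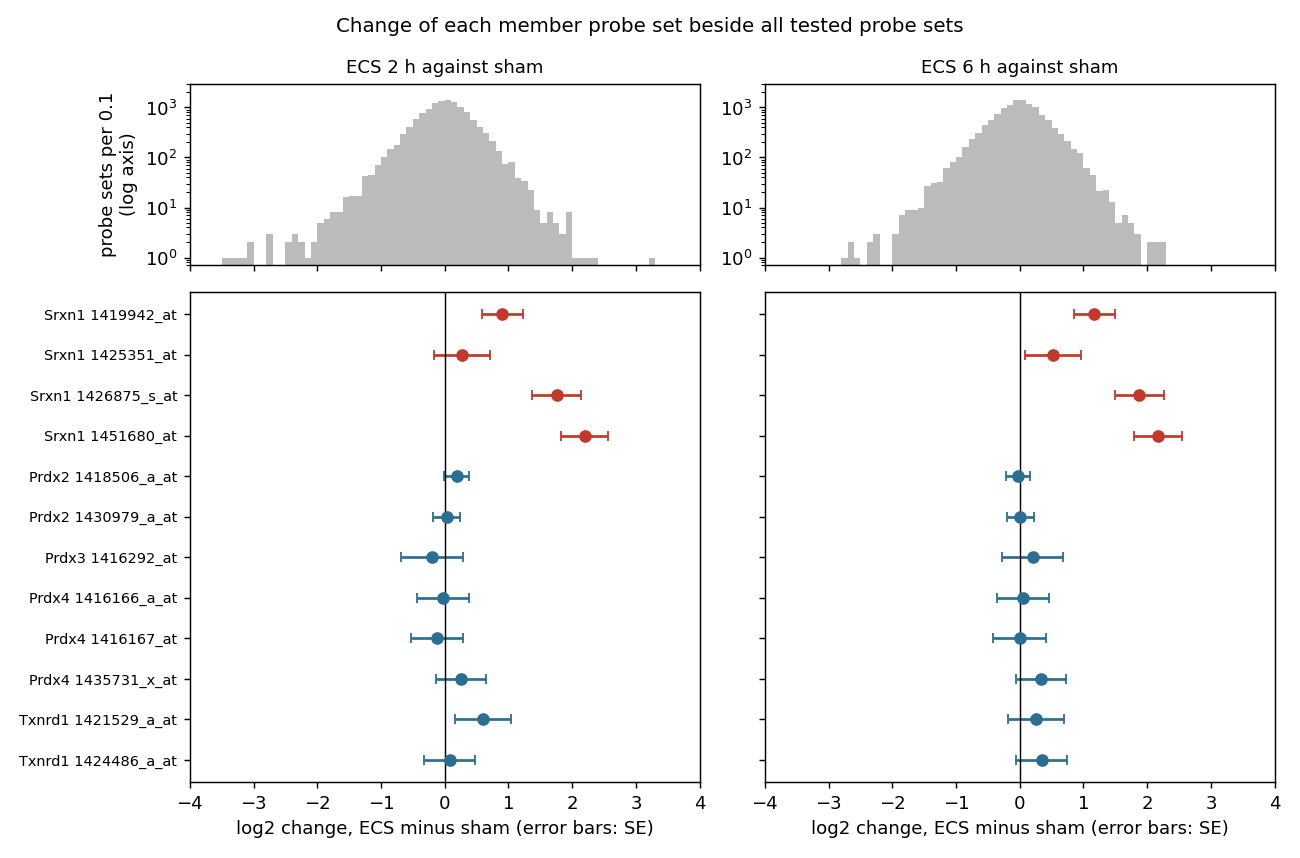
Log2 change against sham (horizontal axis) at 2 h (left) and 6 h (right) for the 12 fitted probe sets, with bars of 1 SE, below the distribution of all 12662 probe sets (log axis). The Srxn1 probe sets reach 2.20 at 2 h and 2.17 at 6 h, while the 8 probe sets of the other genes lie between -0.20 and 0.60 at 2 h and between -0.02 and 0.34 at 6 h.

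The peroxiredoxins and thioredoxin reductase had means closer to sham than 3 of the 4 Srxn1 probe sets had, and none of their probe sets passed a test. The fourth, Srxn1 1425351_at, had changes of 0.27 at 2 h and 0.52 at 6 h, and at 2 h Txnrd1 1421529_a_at stood above it. At 2 h the log2 changes of their 8 fitted probe sets ran between -0.20 and 0.60 with a median of 0.06, against 0.01 over all tested genes. At 6 h they ran between -0.02 and 0.34 with a median of 0.13, and 0 of 8 stood clear of sham. Tested by limma at 6 h, 0 of 8 were called, with adjusted p = 0.999757 for each, and 0 of 8 had an unadjusted p under 0.05.

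Prdx2, a cytosolic peroxiredoxin of neurons, was bright on every array. Probe set 1418506_a_at read 1313.7 and 1581.9 at 2 h, 1642.5 and 1242.6 at 6 h, and 1100.1 and 1488.9 in sham. Its log2 signal averaged 10.59 ± 0.06 at 2 h, 10.37 ± 0.21 at 6 h and 10.40 ± 0.05 in sham (SD, n = 2 each). On the normalized scale both 2 h arrays lay just above both sham arrays. The change at 2 h was 0.19 ± 0.19 (SE), or 1.14-fold, and it was 0.19 in run 1 and 0.18 in run 2. At 6 h the change against sham was -0.02, with a 95% interval of -0.45 to 0.40, and its sign turned to 0.16 without scaling. After normalization both 6 h arrays lay below both 2 h arrays, although 1 of the 6 h arrays had the highest deposited intensity. The log2 difference was -0.21 with an interval of -0.64 to 0.21 (limma adjusted p = 0.998903), and -0.013 without scaling. The second Prdx2 probe set, 1430979_a_at, read 1765.4 and 1939 at 2 h, 2388.8 and 1819.9 at 6 h, and 1909.9 and 1770.3 in sham. On the normalized scale it overlapped between all groups, with changes of 0.03 ± 0.21 at 2 h and 0.01 ± 0.21 at 6 h (SE). Its interval at 6 h was -0.46 to 0.48.

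Prdx3, the mitochondrial peroxiredoxin, had 1 probe set, and its runs disagreed. Its intensity was 193.1 and 90.5 at 2 h, 293.1 and 154.4 at 6 h, and 123.1 and 229.9 in sham. Run 1 put both shocked arrays above sham, by 0.58 at 2 h and 0.78 at 6 h on the log2 scale. Run 2 put both below, by -0.98 at 2 h and -0.38 at 6 h. The means were 7.34 ± 0.94 at 2 h, 7.74 ± 0.66 at 6 h and 7.54 ± 0.16 in sham (SD, n = 2 each), and the groups overlapped. The 6 h change of 0.20 had an interval of -0.86 to 1.27, the widest of the 8.

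Prdx4, the peroxiredoxin of the endoplasmic reticulum, was read by 3 probe sets, and on the normalized scale all of them overlapped between groups. Probe set 1416166_a_at read 155.5 and 101.1 at 2 h, 128.9 and 176.9 at 6 h, and 130 and 144.8 in sham. Probe set 1416167_at read 110.9 and 69.3 at 2 h, 110.1 and 114 at 6 h, and 104.7 and 108 in sham. On both, 1 of the 2 h arrays was the lowest of the 6 on the log2 scale and the other 2 h array was the highest. Probe set 1435731_x_at read 45.9 and 77.1 at 2 h, 57.3 and 87.6 at 6 h, and 51.1 and 53 in sham. The log2 changes of the 3 probe sets were -0.03, -0.12 and 0.26 at 2 h, each with an SE of 0.39 to 0.41. At 6 h they were 0.05, -0.00180 and 0.34, with intervals that all span 0 and reach at most 1.20.

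Txnrd1, the cytosolic thioredoxin reductase, had the largest 2 h change outside Srxn1 on probe set 1421529_a_at. Its intensity was 180 and 287.1 at 2 h, 131.5 and 302.8 at 6 h, and 87.5 and 277.9 in sham. Replicate 2 was high in all 3 groups, so the groups overlapped although each shocked array lay above the sham array of its own run. The log2 signal averaged 8.04 ± 0.20 at 2 h, 7.71 ± 0.72 at 6 h and 7.45 ± 0.66 in sham (SD, n = 2 each). The change was 0.60 ± 0.44 (SE) at 2 h, with 0.92 in run 1 and 0.27 in run 2. It was 0.26 at 6 h, with an interval of -0.72 to 1.24. Probe set 1424486_a_at read 35.7 and 63.5 at 2 h, 73.2 and 64.2 at 6 h, and 31 and 77 in sham, with changes of 0.08 ± 0.40 and 0.34 ± 0.40 (SE). The third, 1424487_x_at, did not pass the filter and was not fitted. It read 12.3 and 18.1 at 2 h, 29.4 and 23.6 at 6 h, and 16 and 32.7 in sham, at or above the array median on 1 of 6 arrays.

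**Figure D3:**
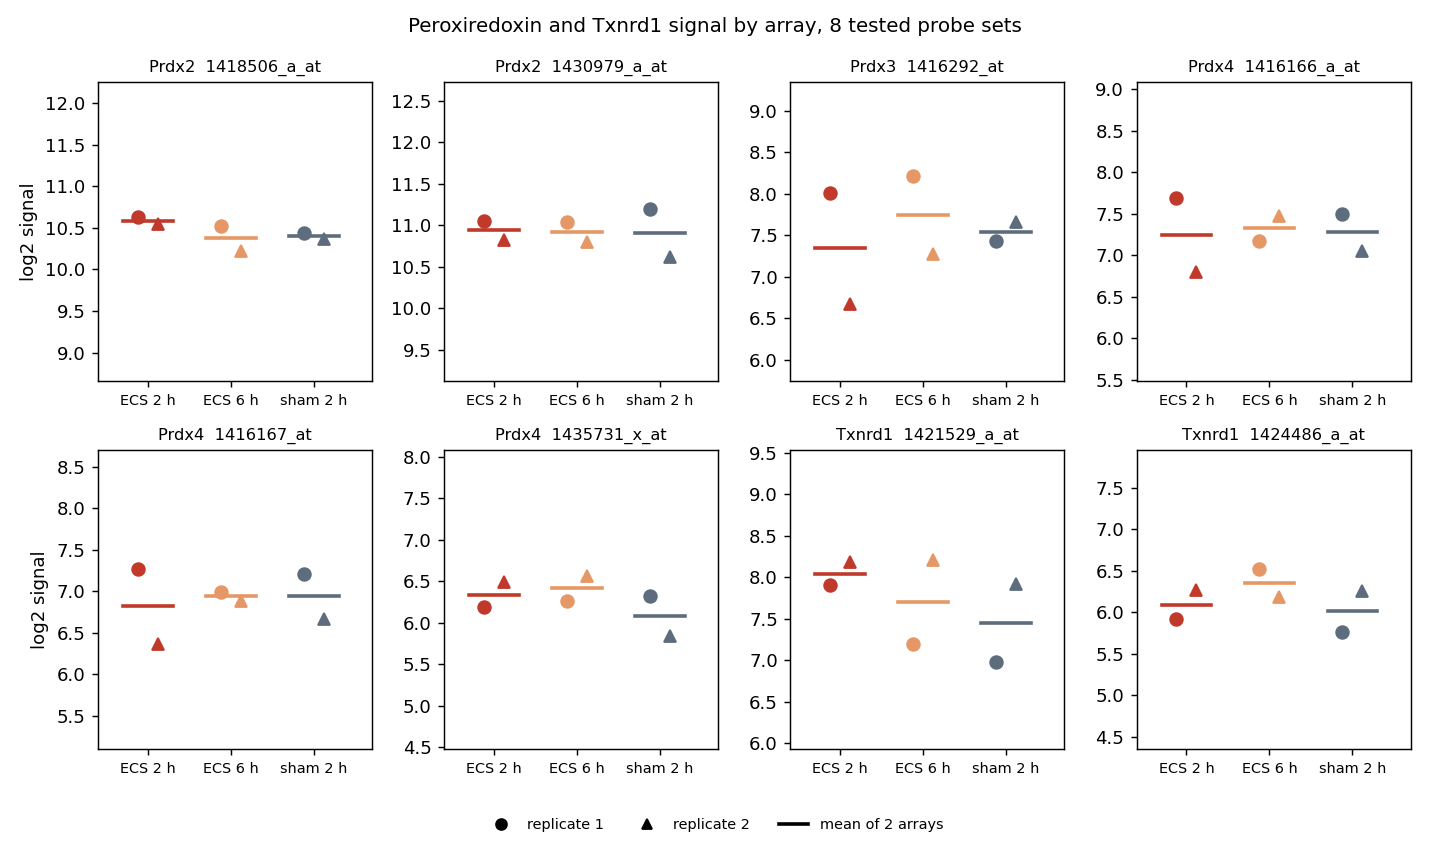
Log2 signal of the 8 fitted probe sets of Prdx2, Prdx3, Prdx4 and Txnrd1 on each array (vertical axis), drawn as in the plot of Srxn1, each panel spanning the same number of log2 units. The groups overlap on every panel except Prdx2 1418506_a_at, where both ECS 2 h arrays lie above both sham arrays by 0.19 on average.

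The partners of the peroxiredoxin cycle and the other antioxidant genes were followed through lists with 1 probe set per gene, the one of highest mean signal. The limma test called 0 genes of each list in each of the 3 comparisons. Over all 7332 tested genes, 16.8% stood higher and 16.4% lower than sham without overlap at 2 h, and 15% and 15.4% at 6 h. A mean higher than sham, with or without overlap, was held by 51.5% of these genes at 2 h and 49.7% at 6 h.

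In the thioredoxin system, 10 of the 11 genes were tested, 6 with a higher and 4 with a lower mean at 2 h, and 3 and 2 of them without overlap. The median log2 change was 0.04 at 2 h and 0.00231 at 6 h. Txn1, the cytosolic thioredoxin, stood at 0.08 ± 0.20 at 2 h and 0.07 ± 0.20 at 6 h. Txnip, the thioredoxin inhibitor that neuronal activity is known to repress in culture, read 13.8 and 26.7 at 2 h, 41.7 and 33.9 at 6 h, and 59.3 and 38.4 in sham. Both 2 h arrays were the lowest of their runs, with a log2 change of -0.78 ± 0.48 (SE) at 2 h and -0.27 ± 0.48 at 6 h. Txn2, the mitochondrial thioredoxin, stood at 0.24 at 2 h and -0.28 at 6 h, without overlap at either time.

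The glutathione system works beside the peroxiredoxins through glutathione peroxidases and the enzymes that make glutathione. Of its 18 tested genes, 12 had a higher and 6 a lower mean at 2 h, with 3 and 1 without overlap and a median change of 0.11. At 6 h the counts were again 12 and 6, with 2 and 2 without overlap and a median of 0.08. Gclm, the modifier subunit of the enzyme that starts glutathione synthesis, read 34.5 and 40.4 at 2 h, 47.5 and 37.7 at 6 h, and 57.9 and 74.3 in sham. Its change was -0.51 ± 0.40 (SE) at 2 h and -0.49 ± 0.40 at 6 h, and both shocked groups lay below sham without overlap. Gclc, the catalytic subunit of the same enzyme, stood at 0.22 at 2 h and 0.45 at 6 h. Gpx4, which reduces lipid peroxides, stood at 0.22 at 2 h and -0.19 at 6 h.

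Of the 22 genes listed as NRF2 targets, 15 were tested, 11 with a higher and 4 with a lower mean at 2 h, of which 2 and 1 did not overlap with sham. Gclc, Gclm, Slc7a11, Gsr and Gsta4 are also on the glutathione list, so the counts of these lists are not separate observations. The median change was 0.14 at 2 h and 0.05 at 6 h. Cbr1, a carbonyl reductase, had the smallest unadjusted p of the list at 2 h, with a change of 0.58 ± 0.38 (SE) there and 0.05 at 6 h. Slc7a11, the cystine carrier, stood at 0.16 at 2 h and -0.28 at 6 h. The classical targets Hmox1 and Nqo1 did not pass the filter. Hmox1, the haem-degrading oxygenase, read 3.1 and 2.2 at 2 h, 38.9 and 10.7 at 6 h, and 18.2 and 5 in sham, where the array medians ran between 25.2 and 40.8. Nqo1, a quinone reductase, read 17.8 and 12.5 at 2 h, 26.4 and 21.5 at 6 h, and 19.2 and 30.3 in sham. Neither is therefore measured well enough here to be set beside Srxn1.

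The enzymes that handle superoxide and peroxide outside the thiol systems included the superoxide dismutases and catalase. At 2 h the 4 tested genes had a median change of -0.07, with Sod1, the cytosolic superoxide dismutase, at -0.01, Sod2, its mitochondrial counterpart, at -0.12, and Cat, catalase, at 0.02. At 6 h the median was -0.05, and it turned to 0.10 without scaling between the arrays and 0.13 after median subtraction. The sestrins, which act in metabolic stress and were once proposed to repair peroxiredoxins, held 1 gene that stood apart. Sesn2 read 64.8 and 65.8 at 2 h, 8.4 and 41.9 at 6 h, and 25.8 and 11.3 in sham. Both 2 h arrays lay above all the others, with a change of 1.34 ± 0.52 (SE) at 2 h and 0.09 ± 0.52 at 6 h.

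**Figure D4:**
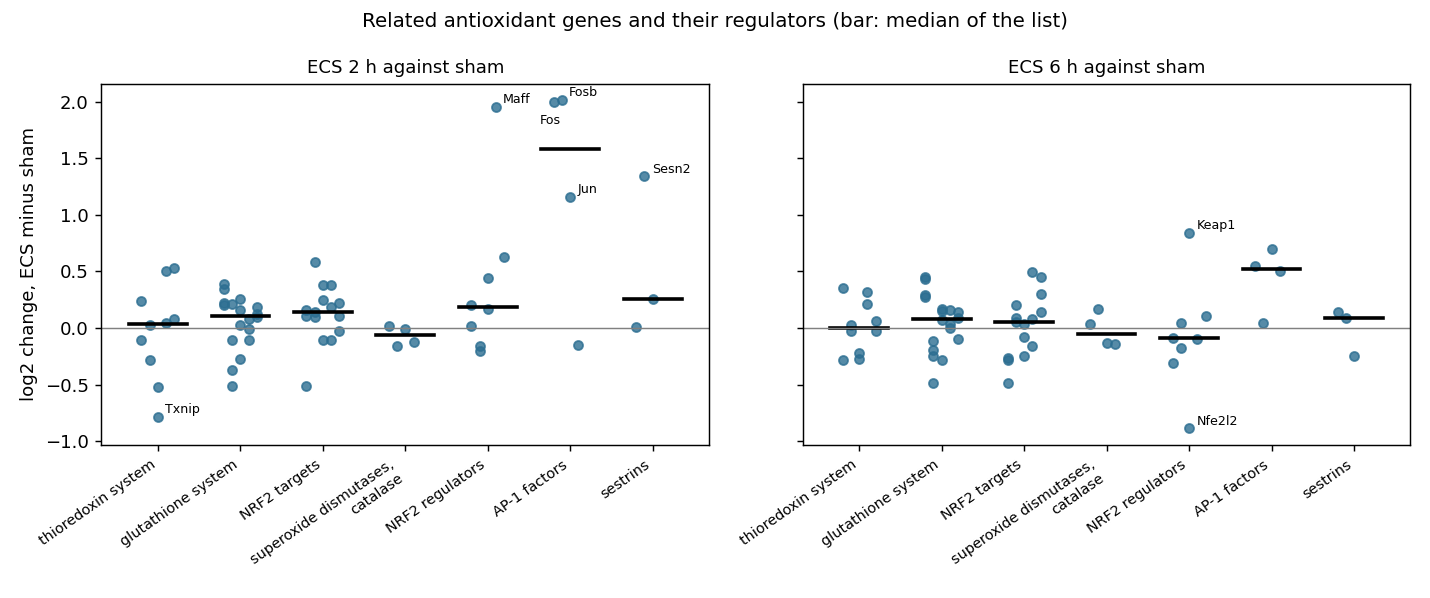
Log2 change against sham (vertical axis) at 2 h (left) and 6 h (right) for the tested genes of 7 lists, 1 point per gene, with a bar at the median of each list. The thiol and NRF2 target lists have medians of 0.04 to 0.14 at 2 h, while Fos, Fosb, Jun, Maff and Sesn2 lie above 1 at 2 h and below 1 at 6 h. Fos, Fosb and Maff passed the filter only through their 2 h arrays.

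Among the regulators, Fos, Fosb, Jun and Maff had their highest means at 2 h and lower means at 6 h. Fos, Fosb and Maff passed the filter only through their 2 h arrays, so nothing is read from their fall beside Srxn1. The means of Srxn1 at 6 h were close to those at 2 h. Fos, an immediate early AP-1 subunit, read 109.5 and 101.9 at 2 h, 21.5 and 46.8 at 6 h, and 14.5 and 21.6 in sham. Its log2 change was 2.00 ± 0.42 (SE) at 2 h, 0.55 ± 0.42 at 6 h and -1.45 ± 0.42 for 6 h minus 2 h. Jun, its usual partner, read 425.7 and 687.4 at 2 h, 527.3 and 391.6 at 6 h, and 277.6 and 221.9 in sham. Both shocked groups of Jun lay above sham, with changes of 1.16 ± 0.36 at 2 h and 0.70 ± 0.36 at 6 h. Fosb, a related subunit, stood at 2.02 at 2 h and 0.05 at 6 h, and Jund at -0.15 and 0.51. The mean log2 signal of Fosb was 6.45 at 2 h, 4.48 at 6 h and 4.44 in sham, near the floor of 4 in the latter groups. Fosb therefore passed the filter only through its 2 h arrays. Outside 2 h, Fos reached the array median only on ECS 6 h replicate 2, so Fos too passed only through its 2 h arrays. Of the 8 AP-1 genes listed, Fosl1, Fosl2, Junb and Atf3 did not pass the filter, and the median of the 4 tested was 1.58 at 2 h and 0.53 at 6 h. A gene dim in sham could enter this median only where its shocked arrays were bright, so nothing is read from it.

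Maff, a small Maf protein that pairs with NRF2 at antioxidant response elements, read 109.5 and 145.9 at 2 h, 11.7 and 35.4 at 6 h, and 14.5 and 41 in sham. Its change was 1.96 ± 0.43 (SE) at 2 h, -0.09 ± 0.43 at 6 h and -2.05 ± 0.43 for 6 h minus 2 h. Nfe2l2, which encodes NRF2, read 43.8 and 96.1 at 2 h, 22.5 and 30 at 6 h, and 28.5 and 125.8 in sham. The 2 h and sham arrays of Nfe2l2 overlapped (0.16 ± 0.48), and after normalization both 6 h arrays lay below them (-0.89 ± 0.48 against sham), although 1 deposited 6 h intensity exceeded 1 in sham. Keap1, the adaptor that marks NRF2 for destruction, read 164.7 and 129.5 at 2 h, 257.8 and 203.4 at 6 h, and 71.1 and 176 in sham. Its change was 0.44 ± 0.39 at 2 h and 0.84 ± 0.39 at 6 h, where the arrays did not overlap with sham. Over the 8 tested regulators of NRF2 the median change was 0.18 at 2 h and -0.09 at 6 h. Outside 2 h, Maff reached the array median only on sham replicate 2, so it entered this median only through its 2 h arrays. Bach2 did not pass the filter, and nothing is read from this median.

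**Figure D5:**
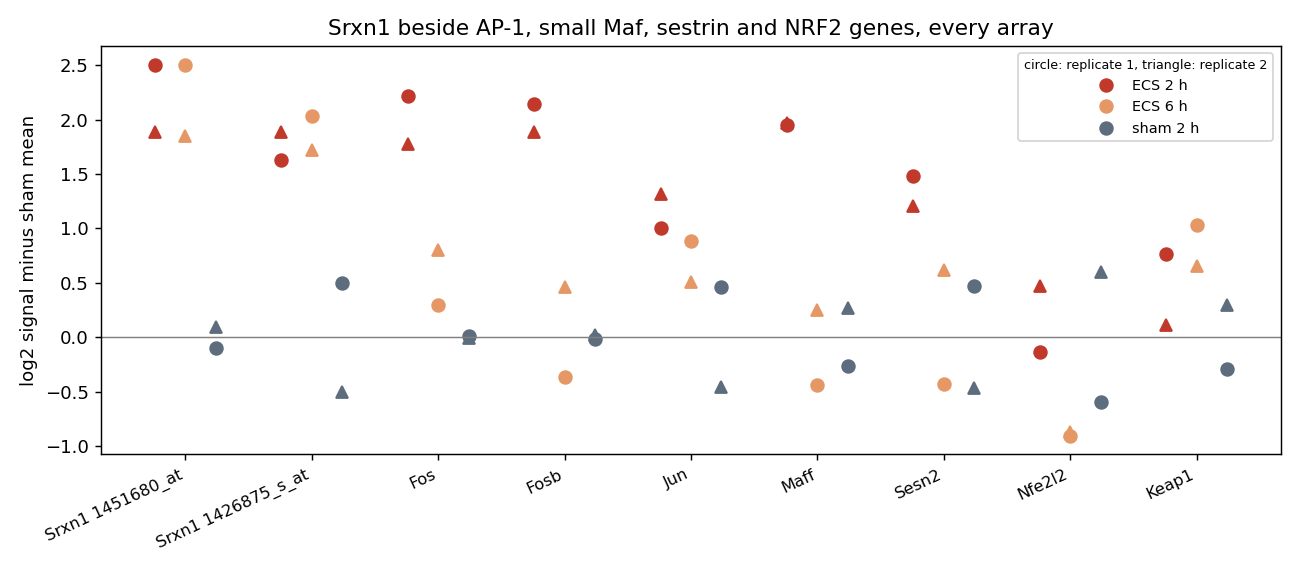
Log2 signal minus the sham mean of the same gene (vertical axis) on every array, for 2 Srxn1 probe sets, 3 AP-1 genes, Maff, Sesn2, Nfe2l2 and Keap1; red is ECS 2 h, orange ECS 6 h and grey sham, circles are replicate 1 and triangles replicate 2. The Srxn1 arrays at 6 h overlap with those at 2 h, while at 6 h Fos, Fosb, Maff and Sesn2 lie nearer to sham than at 2 h. Fos, Fosb and Maff passed the filter only through their 2 h arrays.

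By a rule that took the Srxn1 probe set of highest mean signal, 1419942_at, the genes with the most similar pattern were Rilpl1, Sharpin, Osbpl6, Ttc4, Cenpx and Creb1. Their Pearson's r over the 6 arrays was 0.97 for Rilpl1 and 0.89 to 0.90 for the other 5, among 3254 probe sets with an SD of at least 0.5. Rilpl1 stood 0.90 above sham at 2 h and 1.04 above it at 6 h on the log2 scale. The genes with the most opposite pattern were E2f1, Smarcc1 and Unc13b, with r between -0.93 and -0.92. With 1451680_at as the pattern, a choice made after seeing the data, the most similar genes were Tulp3 (r = 0.99), Mtrr, Galnt7, Agbl5, Dgcr2 and Cct3, and 0 of the 6 were shared with the list for 1419942_at. The most opposite were Bsn, Yap1 and Enc1, again with 0 of 3 shared. With 6 arrays in 3 groups, such values mostly follow the group means and are given as a description.

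The dissected tissue carried the defining transcripts of the PVN. Oxt read 1856.6 and 1993.1 at 2 h, 3285.9 and 2183.1 at 6 h, and 1494.5 and 1988 in sham, and Avp, Trh and Sim1 were above the array median on all 6 arrays. Otp did not pass the filter, and Crh has no probe set of its own symbol here. Markers of forebrain neurons also differed between the groups, and their sum was lower after shock, where the Srxn1 means were higher. Of 6 such genes 5 were on the array, and their summed normalized intensity was 201 to 235 at 2 h, 437 to 1097 at 6 h and 1756 to 2091 in sham. The sum of 10 general neuron markers was 11526 to 11539 at 2 h, 12206 to 13999.6 at 6 h and 14933 to 15743 in sham. The 5 PVN markers on the array summed to 4563 to 4839 at 2 h, 4574 to 5208 at 6 h and 3769 to 3821 in sham. Neurod6 and Neurod2, forebrain transcription factors, did not pass the filter. Neurod6 read 1.7 and 1.9 at 2 h, 1.6 and 33.4 at 6 h, and 17.7 and 71 in sham, and Neurod2 read 0.3 and 1.6 at 2 h, 24.9 and 11.1 at 6 h, and 12.7 and 27.2 in sham. Endothelial markers (6 of 7 genes) summed to 285 to 443 at 2 h, 333 to 472 at 6 h and 280.2 to 329 in sham. Oligodendrocyte markers (7 of 8) summed to 3016 to 3118 at 2 h, 2466 to 2702 at 6 h and 3334 to 3646 in sham. Ependymal markers (2 of 4) summed to 75.1 to 129 at 2 h, 62.7 to 125 at 6 h and 55.1 to 63.6 in sham, and red cell markers (2 of 4) to 9.2 to 40.9 at 2 h, 33.2 to 45.4 at 6 h and 17.6 to 24.6 in sham. The sums of 8 astrocyte and 8 microglial markers overlapped between sham and each shocked group. The part of these differences in the Srxn1 result was not tested. Array ECS 6 h replicate 1 stood apart from the other 5 on the first principal component (32.2% of variance). Without it the 6 h change of Srxn1 1451680_at was 1.82, against 2.17 with it.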

How the data were processed

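The arrays measured labelled cDNA amplified from pooled PVN RNA, 2 arrays in each of 3 groups. The authors deposited a linear intensity for each of 22690 probe sets. MAS5 produced it, according to the submitters' processing notes. Its version, detection calls and a genome build are not given here. Control probe sets (64) were left out, an offset of 16 was added, the arrays were quantile normalized, and log2 was taken, so that no value lies below 4 and changes of dim probe sets are shrunk. The array medians of intensity ran between 25.2 and 40.8, and the number of arrays limits the precision. The 12662 of 22626 probe sets that reached the median of the array on 2 or more of 6 arrays entered 1 limma fit (version 3.58.1, R 4.3.3) with group means and an intensity trend. P-values were two-sided and adjusted by Benjamini-Hochberg over all 12662, with a threshold of 0.05.

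Gene symbols came from the platform annotation, in which 20380 probe sets have 1 symbol, 691 several and 1555 none, and 20351 were matched to RefSeq by Entrez identifier. Promoter sequences are those of RefSeq. The members and the lists were chosen with earlier results of these data known. Named genes are all members, up to 3 genes per list and comparison by smallest unadjusted p, a set of textbook genes, and the 6 most and 3 least similar to Srxn1. No columns of other samples were present.

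Replicate numbers were taken as the 2 runs, since the whole experiment was done 2 times, although the labels do not state outright that the numbers are the runs. As a check, same-numbered arrays deviated together from their group means, with correlations of 0.23, 0.18 and 0.15 for the 3 pairs of groups, so a replicate block was 1 of the alternatives. The procedure was tested on simulated data. In 10 draws for the comparison of ECS 2 h with sham, with 200 of 12662 probe sets changed, it recovered 92.6% of 8-fold changes and made 6.3 false calls per draw. The other alternatives were the offset (1 and 64), the scaling, the filter, the variance trend, array weights, only the 4 arrays compared, the mean over a gene's probe sets, and leaving out each array.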

Additional observations from a re-analysis of the deposited data

How the results depend on the processing

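No member probe set was called in any of the 3 comparisons under any alternative run. The count of all probe sets called at ECS 2 h against sham, 0 as reported, was 1 without scaling, 1 after median subtraction, 2 with array weights, 4 with the replicate block, 12 with only the 4 arrays of the comparison, and 0 to 10 when single arrays were left out, with 10 without ECS 6 h replicate 1 and 10 without ECS 6 h replicate 2. At ECS 6 h against sham leaving out single arrays gave 0 to 6, with 6 without ECS 6 h replicate 2, and at ECS 6 h against ECS 2 h 0 to 3, with 3 without that array. The replicate block left the log2 changes as they were, and the counts with an unadjusted p under 0.05 became 826, 793 and 720 with the block. The log2 change of Srxn1 1451680_at became 1.72 at 2 h and 1.70 at 6 h with an offset of 64, which by its construction shrinks changes of dim probe sets. Leaving out single arrays gave 1.89 to 2.50 at 2 h and 1.82 to 2.51 at 6 h. On 1426875_s_at the corresponding ranges were 1.26 to 2.27 and 1.38 to 2.39, and on 1419942_at 0.76 to 1.04 and 0.74 to 1.58. The change of 1425351_at at 2 h ran between -0.23 and 0.78 over the 16 alternatives and kept its sign in 15. The cause of these shifts was not tested. The sign of 2 of the 12 member probe sets turned under a scaling in each comparison. Median subtraction moved the median of all genes to 0.11 at 6 h against sham, and no scaling moved it to 0.16 at 6 h against 2 h. Without ECS 2 h replicate 1, 1 member probe set stood apart by at least 2-fold at 6 h against 2 h, and 0 with all arrays. With 2 arrays a group and simulated recovery of 5.37% of 2-fold changes at 2 h against sham, the adjusted test would mostly miss changes of that size. That recovery is an average over probe sets of all signal levels, in simulated arrays without a difference between runs. The 95% intervals of Prdx2 at 6 h against sham, -0.45 to 0.40 and -0.46 to 0.48, stayed under 2-fold in either direction. Those of Prdx3 and Prdx4 reached up to 1.27 and 1.20, which is above 2-fold.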
